A study of Drosophila melanogaster with 90 samples.

Results

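The genes of the cytoplasmic ribosome were followed in ovaries of Drosophila melanogaster females across 30 genotypes of small ovary (sov), a gene on the X chromosome. Members were the gene entries with the FlyBase symbol sta, or RpL or RpS followed by a number and at most 1 letter, or RpLP0, RpLP1 or RpLP2. Left out by name were RpS19a, RpS19b, RpS10a, RpS10b, RpS5a, RpS5b and RpL22, which are paralogues or have them. The symbol pattern also misses others, such as RpL10Ab, RpL37-1 and RpS15Aa. With these, 18 genes with RpL or RpS symbols are not members, so the members are not the full set. The rule found 75 of 17493 genes, 30 of the small subunit and 45 of the large, and it used no expression value. The members are spread over the genome, with 17 on chromosome arm 2L, 17 on 2R, 13 on 3L, 18 on 3R, 1 on chromosome 4 and 9 on X.

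A ribosome holds about 1 copy of each ribosomal protein, so the genes that encode them are expressed at high and closely matched levels in growing cells. The small subunit decodes the messenger RNA and the large subunit joins the amino acids. Loss of 1 copy of many of these genes gives the Drosophila Minute phenotype of slow development and thin bristles. In the ovary, nurse cells make the ribosomes that are loaded into the egg, and the subunits are assembled in the nucleolus before export to the cytoplasm.

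PolyA RNA was sequenced in 90 stranded libraries, 3 for each genotype, with the ovaries of females aged 4 to 5 days pooled in each library, 15 ovaries in each. All flies were raised at 25 °C, and 10 pg of spike-in RNA of the External RNA Controls Consortium (ERCC) went into each library with 200 ng of total RNA. The sterile mutants without NP6070 carried Dfsov, sovEA42 or sovML150 over either KG00226 or sov2, which makes 6 genotypes, and the sterile mutant with it was NP6070/NP6070. The fertile mutants without NP6070 were KG00226/KG00226, KG00226/sov2 and sov2/KG00226, and those with it were KG00226/NP6070, NP6070/KG00226, NP6070/sov2 and sov2/NP6070. The controls without NP6070 were Dfsov, KG00226, sov2, sovEA42 and sovML150, each over w1118, together with w1118/w1118, w1118/sov2 and w1118/KG00226. The controls with NP6070 were NP6070/w1118 and w1118/NP6070. Dfsov is a deficiency of the sov region, KG00226 is a P{SUPor-P} insertion and NP6070 is a P{GawB} insertion. The chromosomes also carry other markers, y[1] with KG00226, y[1] cv[1] v[1] f[1] with sov2, y[*] w[*] with NP6070, and w[1118] with Dfsov and sovML150.

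In the RNAi groups, sov (TRiP.HMC04875 at attP40, labelled sterile) or mCherry (VALIUM20-mCherry at attP2, labelled fertile) was targeted with da-Gal4, which is active in most cells, nos-Gal4, active in the germline, or tj-Gal4, active in somatic cells of the gonad. The 2 hairpins thus also differ in the chromosome they sit on. Several genotypes differ only in the order in which the 2 alleles are written, and what that order stands for is not given in the sources used here. Each mutant allele recurs in several genotypes of a class, so the genotypes of a class are not fully independent.

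The libraries held 2110 to 13164806 gene counts (median 4346724.5). Under 100000 counts were found in 3 libraries, sov2/w1118 replicate 1 with 2110, Dfsov/sov2 replicate 3 with 16486 and sovML150/KG00226 replicate 2 with 49795. Shares and spreads below use the other 87, while the fits keep all libraries, and leaving the 3 out changed no count of calls but that for allele order. Levels are given as CPM, read counts divided by the normalised library size and scaled to the same total in each library. The sov transcript was read from the entry with the identifier that the labels give for the targeted gene. That identifier differs from the one of sov in the annotation used here, so these values are uncertain. By genotype, this entry averaged 83.9 to 333 CPM in the sterile mutants without NP6070, against 100 to 200 CPM in the controls without NP6070. Its level therefore does not separate the labelled classes, and the labels were used as given. A difference was called where its p-value, adjusted by the Benjamini-Hochberg method over all genes and transposable element families tested, was below 0.05. RpS28a had at most 1 count in any library and was not tested, so every comparison covers 74 members. In pooled ovaries, fewer cells of a type and less RNA per cell cannot be told apart.

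The 75 genes together took 8.09% to 16.5% of the gene counts of a library, with a median of 11.4%. Within this sum the small subunit held 37.3% to 39.1% of the member counts in every library, so the balance of the subunits varied far less than the total. Levels of single members, as CPM per kb of exon in w1118/w1118 ovaries, spanned more than an order of magnitude. RpL41, a very short protein of the large subunit, was highest at 8831 ± 1037 CPM per kb (SD, n = 3). RpL27A followed with 4470 ± 292 CPM per kb, and RpS27A, which is made fused to ubiquitin, with 4424 ± 188 CPM per kb. The next levels were those of RpL23 at 3809 ± 243 CPM per kb and of RpLP2, a protein of the acidic stalk that recruits elongation factors, at 3618 ± 312 CPM per kb. RpL27A and RpS27A did not differ beyond their spread, nor did RpL23 and RpLP2. RpL34a had 553 ± 36.6 CPM per kb and RpL5, which binds the 5S RNA together with RpL11, had 605 ± 44.6 CPM per kb. Exon length covers all annotated exons of a gene, and that of RpL5, 3835 bp, is the longest of the members. Its low value per kb depends on that length. The adjacent copies RpS14b and RpS14a had 738 ± 87.5 and 812 ± 72.1 CPM per kb.

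The order of the members by level was similar in the sterile mutants and the controls without NP6070, with a Spearman correlation of 0.94 across the 75 genes, given as a description since the genes share the libraries. RpS12 was ranked 15 in the sterile mutants without NP6070 and 6 in w1118/w1118. RpS2 was ranked 47 in these mutants and 24 in w1118/w1118, and RpL29 was ranked 37 against 20. RpS18 moved the other way, to rank 16 in these mutants against 35 in w1118/w1118. Length per gene is the same in each library, so these shifts follow the counts. The ranks set the mean of the sterile genotypes against w1118/w1118 alone, unlike the correlation. What sets w1118/w1118 apart from the other controls therefore enters them too.

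**Figure D1:**
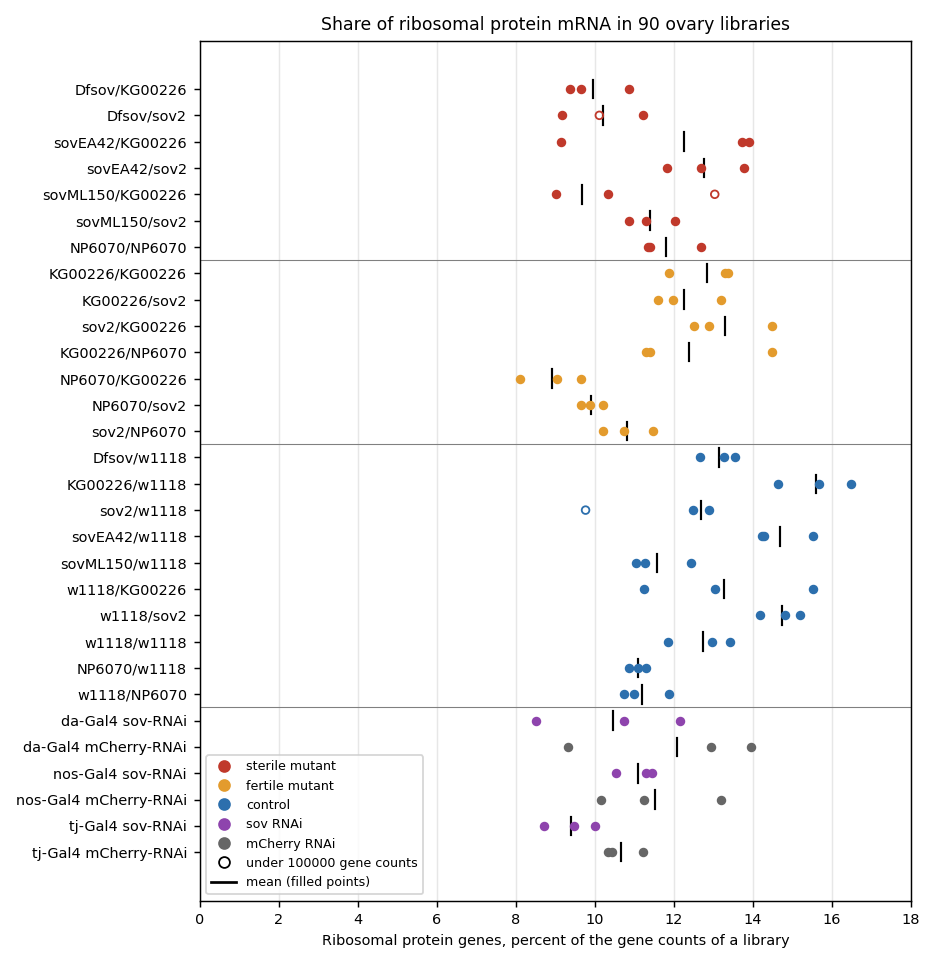
Share of gene counts held by the 75 cytoplasmic ribosomal protein genes, in percent (horizontal axis), for each library of the 30 genotypes (rows, by class). Open points are the 3 libraries with under 100000 gene counts and the bar is the mean of the other libraries. NP6070/KG00226 averages 8.93% and KG00226/w1118 averages 15.6%.

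The plot of shares by library shows the classes side by side. Genotype means of the sterile mutants without NP6070 lay between 9.67% and 12.8% with a median of 10.8%, against 11.6% to 15.6% with a median of 13.2% in the controls without NP6070. The 2 ranges overlap. The fertile mutants without NP6070 lay between 12.3% and 13.3%, within the range of these controls. With NP6070, the sterile genotype averaged 11.8%, the fertile genotypes 8.93% to 12.4% and the control genotypes 11.1% and 11.2%.

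Ribosomal protein genes were lower as a group in the sterile mutants without NP6070 than in the controls without NP6070. Of 74 members, 68 fell and 0 rose in edgeR's quasi-likelihood test over genotypes, 26 of 29 small subunit genes and 42 of 45 large subunit genes. Over all 10217 features tested, 23.3% were called lower and 30.3% higher. The median log2 change of the members was -0.50, against 0.02 over all features. Changes were moderate and ran from -0.83 to -0.15 on the log2 scale, and 0 members were lower by more than 2-fold. By chromosome arm the member medians were -0.51 on 2L, -0.50 on 2R, -0.54 on 3L, -0.49 on 3R and -0.51 on X, so the 9 members that share the X chromosome with sov had a median close to the others.

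Among small subunit genes, RpS12, which in Drosophila takes part in the sensing of ribosomal protein gene dose during cell competition, had genotype means of 916, 1224 and 1382 CPM (lowest, median and highest) in the sterile mutants without NP6070, against 1501, 1968 and 2312 CPM in the controls without NP6070. The groups did not overlap, and the log2 change was -0.77 ± 0.13 (SE, adjusted p = 4.87e-05). RpS2, named string of pearls after the oogenesis defect of its mutants, had 1242, 1685 and 2283 CPM in the sterile mutants against 2622, 2880 and 3147 CPM in the controls, again without overlap. Its log2 change was -0.75 ± 0.12. The gene sta, which encodes RpSA, a homologue of the laminin receptor precursor, had 2073, 2469 and 2994 CPM in the sterile mutants against 3440, 3751 and 4562 CPM in the controls. Its log2 change was -0.68 ± 0.10. RpS27A had 1325, 1670 and 1941 CPM in the sterile mutants against 2333, 2651 and 3239 CPM in the controls, with a log2 change of -0.71 ± 0.11. Other small subunit genes fell less. RpS13 fell by 0.58 on the log2 scale, RpS21 by 0.52, RpS15 by 0.47, RpS6, the target of S6 kinase, by 0.45, RpS26 by 0.41 and RpS3, at the entry of the messenger RNA channel, by 0.41.

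Among large subunit genes, RpL28 had genotype means of 1059, 1259 and 1596 CPM in the sterile mutants without NP6070, against 1705, 2160 and 2484 CPM in the controls without NP6070. The groups did not overlap, and its log2 change of -0.79 ± 0.10 had the smallest adjusted p of the members (2.9e-06). RpLP0, which anchors the stalk, had 1343, 1987 and 2425 CPM in the sterile mutants against 2730, 2992 and 3790 CPM in the controls, also without overlap. Its log2 change was -0.71 ± 0.12, while the stalk proteins RpLP2 and RpLP1 fell by 0.58 and 0.46. RpL3, near the peptidyl transferase centre, fell by 0.61 on the log2 scale, RpL13A by 0.60, RpL19 by 0.53, RpL41 by 0.51, RpL36 by 0.51, RpL24 by 0.51, RpL14 by 0.45 and RpL40, also a ubiquitin fusion, by 0.45. RpL5 fell by 0.29 with an adjusted p of 0.0449, near the threshold. RpL38, whose mouse homologue acts in the translation of Hox messages, had 289, 486 and 607 CPM in the sterile mutants against 443, 631 and 971 CPM in the controls, with overlap. Its log2 change of -0.50 ± 0.21 had an adjusted p of 0.0486 with edgeR and of 0.05125 with DESeq2, and it was also lost in edgeR with DESeq2's size factors (0.0715), with a stricter filter (0.0585), with classes pooled over NP6070 (0.0651) and without the sterile genotypes with sov2 (0.0996) or KG00226 (0.1965).

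The 6 members that were not called were also below the controls in value. RpL10, a late-joining protein of the large subunit, had 1258, 1629 and 1827 CPM in the sterile mutants without NP6070 against 1569, 1724 and 2112 CPM in the controls without NP6070, with a log2 change of -0.15 ± 0.11 (adjusted p = 0.246). RpS18 had 993, 1174 and 1303 CPM in the sterile mutants against 1045, 1296 and 1624 CPM in the controls, with a log2 change of -0.16 ± 0.09 (adjusted p = 0.166). RpS14a had a log2 change of -0.19 ± 0.13, RpL39 of -0.20 ± 0.12, RpS9 of -0.25 ± 0.11 and RpL11 of -0.26 ± 0.13. All 6 overlapped between the classes, though a p above the threshold does not show that they were equal.

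**Figure D2:**
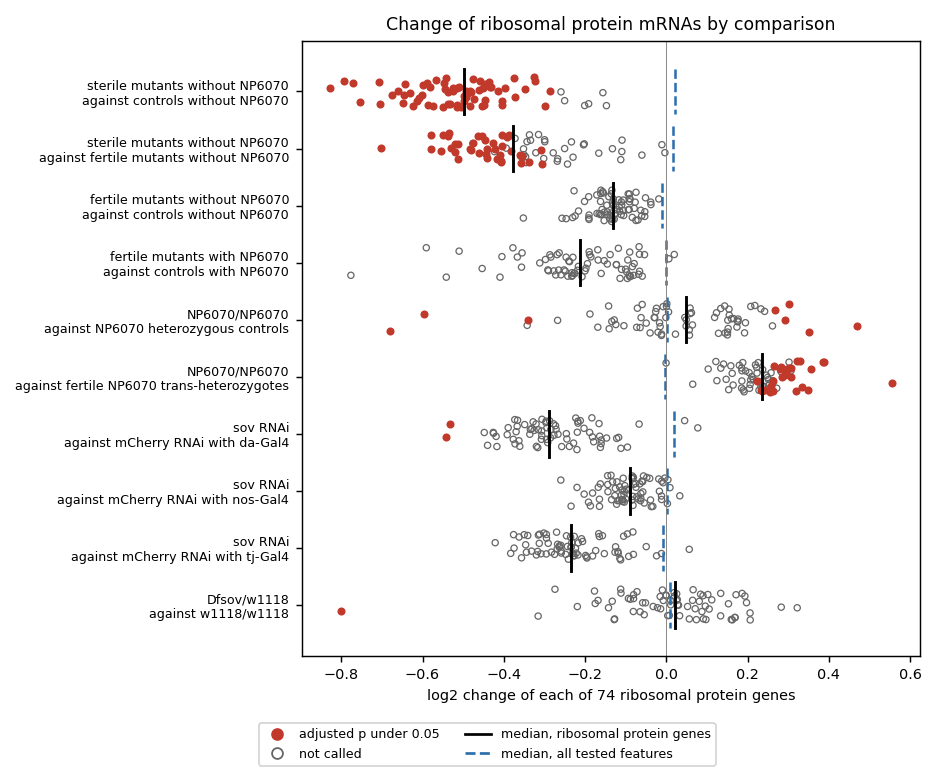
Log2 change of each of 74 members (points) in 10 comparisons (rows), with called members in red. The black line is the median of the members and the dashed blue line the median of all features tested. In the sterile mutants without NP6070 against their controls 68 points are red and the median is -0.50, while NP6070/NP6070 against its heterozygous controls has a median of 0.05.

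Other genes of translation were lower in the same comparison. Of 32 genes of ribosome biogenesis and RNA polymerase I, 26 fell and 0 rose, with a median log2 change of -0.44. Among them mod, encoding a nucleolar protein, fell by 0.77, Fib, the fibrillarin that methylates ribosomal RNA, by 0.73, and Nop60B, the pseudouridine synthase, by 0.59. Of 25 translation initiation genes 24 fell, with a median of -0.33, including eIF4G1 at -0.65 and eIF4E1 at -0.51. Of 8 elongation genes 6 fell, and eEF1alpha2, an isoform of the factor that brings tRNA to the ribosome, rose by 2.62 ± 0.40. Of 71 mitochondrial ribosomal protein genes 46 fell, with a median of -0.25. Among growth regulators, 5 of 16 rose and 5 fell, shares near those over all features. Only genes with a higher value are named from this list, and the 5 that fell are not. Xrp1, a transcription factor induced in Drosophila cells that lack a copy of a ribosomal protein gene, rose by 1.06 ± 0.21 on the log2 scale (adjusted p = 0.000253), and Thor, the eIF4E-binding protein, by 0.73 ± 0.24. Of 15 paralogues and relatives left out by the rule and tested, 9 fell and 4 rose. Those that rose were RpL22-like at 6.09, RpS10a at 3.74, RpL37-2 at 3.71 and RpS19b at 3.17 on the log2 scale.

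Markers of other cells and of late egg chambers also moved between these classes. Muscle genes rose in 17 of 19 cases, with a median log2 change of 3.64, and all 19 had counts in both classes. Their summed level was 2465 to 16099 CPM in the sterile mutants without NP6070 and 873 to 1169 CPM in the controls without NP6070. All 12 chorion genes fell, with a median of -3.05, and their sums were 101 to 17426 CPM in the sterile mutants against 16728 to 43361 CPM in the controls. All 7 vitelline membrane genes and all 4 yolk genes fell as well. Germline genes summed to 1344 to 2412 CPM in the sterile mutants against 2457 to 3109 CPM in the controls, and 3 of 6 fell while 1 rose. Of 6 ovarian soma genes 4 fell and 1 rose, of 10 hemocyte and basement membrane genes 3 fell and 5 rose, and of 5 neuron genes 4 rose. Of 5 fat body genes tested 2 rose, and of 5 gut genes 1 rose and 1 fell. The part of this shift in cell types in the lower ribosomal protein counts was not tested.

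**Figure D3:**
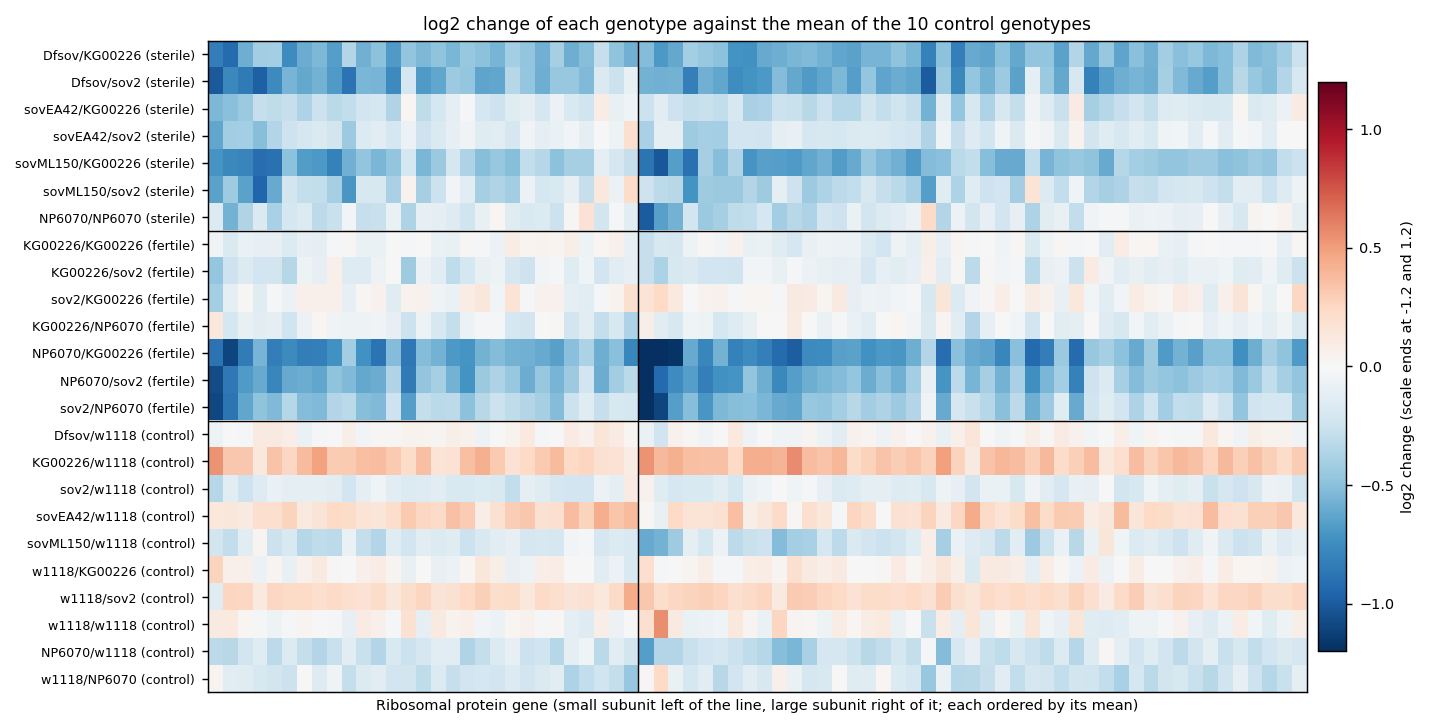
Log2 level of 74 members (columns, small subunit left) in 24 mutant and control genotypes (rows, by class), relative to the mean of the 10 controls, on a colour scale that ends at -1.2 and 1.2. Dfsov/sov2 and NP6070/KG00226 are low across nearly all members, with medians of -0.57 and -0.65, and KG00226/w1118 is high with a median of 0.33.

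The map of genotypes shows that members moved together and that genotypes of a class differed. Relative to the mean of the 10 control genotypes, the member medians of the sterile mutants without NP6070 were -0.54 in Dfsov/KG00226, -0.57 in Dfsov/sov2, -0.50 in sovML150/KG00226, -0.28 in sovML150/sov2, -0.25 in sovEA42/KG00226 and -0.16 in sovEA42/sov2. Without the libraries under 100000 counts, Dfsov/sov2 had -0.52 and sovML150/KG00226 had -0.64, so the order of these genotypes is not fixed. Each chromosome over w1118 was higher than the same chromosome in a sterile genotype, with 0.01 for Dfsov, -0.19 for sovML150 and 0.21 for sovEA42. The muscle genes had medians of 2.23 in Dfsov/KG00226, 5.03 in Dfsov/sov2 and 3.28 in sovML150/KG00226. They had 4.84 in sovML150/sov2, 3.60 in sovEA42/KG00226 and 3.08 in sovEA42/sov2. A relation between muscle and member medians was not tested. Leaving out the 3 sterile genotypes with sov2 gave 65 members that fell, and leaving out the 3 with KG00226 gave 55.

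The sterile mutants without NP6070 were also lower than the fertile mutants without it. Of 74 members 39 fell and 0 rose, 15 of 29 in the small subunit and 24 of 45 in the large, against 14.4% of all features called lower. The member median was -0.38, against 0.02 over all features. RpL28 fell by 0.70 ± 0.13 on the log2 scale (adjusted p = 0.00048) and RpS29 by 0.58 ± 0.16, while RpS18 had -0.0035, RpL39 -0.01 and RpS9 -0.06. The fertile group holds only 3 genotypes made of 2 alleles, and the count was 17 without sov2/KG00226 and 22 without KG00226/KG00226. In the fertile mutants without NP6070 against their controls 0 members were called by edgeR, 0 had an unadjusted p under 0.05 and DESeq2 called 0, with 1.19% of all features called. Every member was still slightly lower in value, with a median of -0.13 and a range of -0.35 for RpS14b to -0.02 for RpS29.

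Few members changed in the sterile genotype that carries NP6070. NP6070/NP6070 was compared with NP6070/w1118 and w1118/NP6070 over 3 and 6 libraries. Here 5 members rose, against 17% of all 7632 features called higher, and 3 fell, against 16.9% called lower, both below the background share. The member median was 0.05, against 0.00 over all features. RpL28 had 2173, 2375 and 2682 CPM in NP6070/NP6070, against 1940, 2093 and 2014 CPM in NP6070/w1118 and 1796, 1303 and 1376 CPM in w1118/NP6070. The homozygotes were above all 6 heterozygous libraries, with a log2 change of 0.47 ± 0.15 (adjusted p = 0.0158). RpS6 had 2631, 2897 and 3057 CPM in NP6070/NP6070, against 2420, 2474 and 2409 CPM in NP6070/w1118 and 2253, 1928 and 1985 CPM in w1118/NP6070, again without overlap. It rose by 0.35 ± 0.11 (adjusted p = 0.0133), and RpL7A rose by 0.30, RpL4 by 0.29 and RpL17 by 0.27.

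Members that fell in NP6070/NP6070 were RpL30, RpL38 and RpS12. RpL30 (FBgn0086710, chromosome arm 2L, 19008031 to 19009306, minus strand) had 460, 469 and 449 CPM in NP6070/NP6070, against 614, 565 and 558 CPM in NP6070/w1118 and 1019, 888 and 873 CPM in w1118/NP6070. The homozygotes were below all 6, with a log2 change of -0.68 ± 0.11 (adjusted p = 3.38e-05). RpL38 had 403, 504 and 348 CPM in NP6070/NP6070, against 658, 416 and 465 CPM in NP6070/w1118 and 748, 984 and 588 CPM in w1118/NP6070. It fell by 0.60 ± 0.18 (adjusted p = 0.0149) although NP6070/NP6070 and NP6070/w1118 overlapped. RpS12 had 1134, 1324 and 1276 CPM in NP6070/NP6070, against 1413, 1527 and 1440 CPM in NP6070/w1118 and 1874, 1680 and 1521 CPM in w1118/NP6070, and fell by 0.34 ± 0.12 (adjusted p = 0.0314). In the same comparison 23 of 32 ribosome biogenesis genes rose and 1 fell, 31 of 71 mitochondrial ribosomal protein genes rose, and Xrp1 rose by 1.51 ± 0.13 (adjusted p = 7.26e-09). Muscle genes rose in 13 of 17 tested, with a median of 0.69, and all 12 chorion genes fell, with a median of -2.03. The summed muscle level in NP6070/NP6070 was 1051 CPM, against 825 to 1016 CPM in the NP6070 controls. The count of 8 called members was 5 without NP6070/NP6070 replicate 1, 2 without its replicate 3 and 14 without KG00226/NP6070 replicate 1, which enters the fit through the shared estimate of spread.

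Against the 4 fertile NP6070 trans-heterozygotes, 27 members rose in NP6070/NP6070 and 0 fell, against 11.9% of all features called higher, with a member median of 0.24 and an all-feature median of 0.00. RpS14b rose by 0.56 ± 0.12 (adjusted p = 0.00187), RpL28 by 0.39 ± 0.13 and RpS6 by 0.38 ± 0.10, while RpL30 was equal in value with -0.0006 ± 0.0950. The rise of RpS14b did not hold against each genotype, with 363 CPM in NP6070/NP6070 but 443 CPM in KG00226/NP6070. It averaged 221 CPM in NP6070/KG00226, 194 CPM in NP6070/sov2 and 191 CPM in sov2/NP6070. The last 2 carry sov2, whose carriers had low RpS14b shares (below). With libraries scaled to the ERCC counts RpS14b, RpL28 and RpS6 were slightly lower in NP6070/NP6070, at -0.026, -0.20 and -0.19. The median of all features was then -0.57. The count varied from 2 to 53 as single libraries were left out. It was 2 without NP6070/NP6070 replicate 2 and 53 without KG00226/NP6070 replicate 1, and between 13 and 17 without NP6070/NP6070 replicate 1 or 3, KG00226/NP6070 replicate 3, NP6070/KG00226 replicate 3 or sov2/NP6070 replicate 2.

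The difference between the sterile effects, NP6070/NP6070 over its controls minus the other sterile mutants over theirs, was tested as a comparison added after the data were seen. Only RpL28 was called, with a difference of 1.23 ± 0.25 on the log2 scale (adjusted p = 0.0323), and 1.26% of all features were called higher. The member median of this difference was 0.49, against -0.05 over all features, 31 members had an unadjusted p under 0.05 and DESeq2 called 12. The NP6070 side rests on 1 sterile and 2 control genotypes. The call of RpL28 was lost without NP6070/w1118, w1118/NP6070, sovEA42/w1118, sovML150/KG00226 or w1118/sov2, and up to 5 members were called without a sterile genotype.

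**Figure D4:**
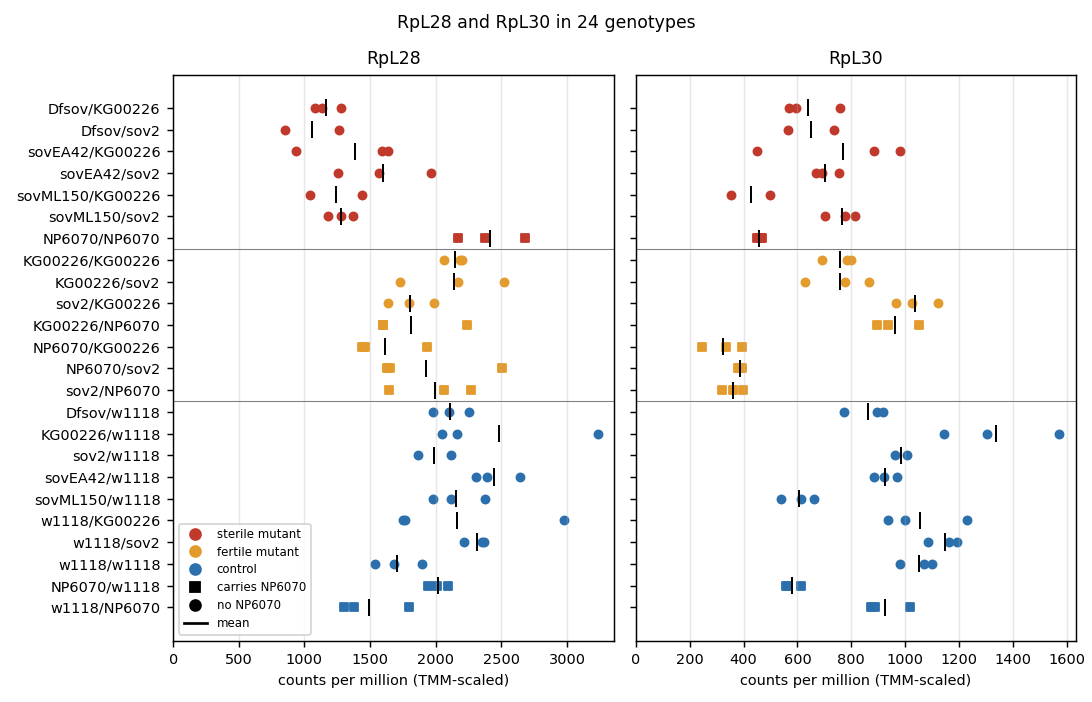
CPM of RpL28 and RpL30 in each library (points) of the 24 mutant and control genotypes, with squares for carriers of NP6070. RpL28 is high in NP6070/NP6070, at 2173 to 2682 CPM, and low in the other sterile mutants, and RpL30 lies between 244 and 398 CPM in NP6070/KG00226, NP6070/sov2 and sov2/NP6070 but between 897 and 1051 CPM in KG00226/NP6070.

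The fertile NP6070 mutants were not separated from the NP6070 controls by the test. Of 74 members 0 were called by edgeR, 4 had an unadjusted p under 0.05 and DESeq2 called 0, with 1.04% of all features called. The median was -0.21, with RpL38 at -0.78 ± 0.32 (adjusted p = 0.42), RpL30 at -0.59 ± 0.34 and RpS14b at -0.54 ± 0.27. The difference between the fertile effects with and without NP6070 called 0 members (0.00979% of all features), 0 had an unadjusted p under 0.05 and DESeq2 called 0. The member median of that difference was -0.07. Leaving out KG00226/NP6070 gave 1 called member in the fertile NP6070 comparison. The 4 fertile NP6070 genotypes were far apart, with member medians of -0.65 in NP6070/KG00226, -0.53 in NP6070/sov2, -0.38 in sov2/NP6070 and -0.08 in KG00226/NP6070 relative to the 10 controls. NP6070/KG00226, a genotype labelled fertile, thus had a member median below those of the sterile mutants without NP6070, which ran from -0.57 to -0.16. Without the libraries of low count it had -0.652, against -0.644 in sovML150/KG00226. Its muscle median was -0.11, and whether muscle genes bear on the members was not tested.

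Genotypes that differ in the written order of their alleles also differed in these genes. Over 6 such pairs tested jointly, 45 of 74 members were called, against 28.8% of all features. KG00226/NP6070 minus NP6070/KG00226 gave a member median of 0.57, a range of 0.19 to 1.59, and 74 members above 0. RpL30 had 1051, 897 and 938 CPM in KG00226/NP6070, against 335, 394 and 244 CPM in NP6070/KG00226. These libraries did not overlap, and across the 6 pairs RpL30 had the smallest adjusted p of the members (7.34e-07), with a difference of 1.59 in this pair. RpL38 had 636, 582 and 589 CPM in KG00226/NP6070, against 224, 317 and 151 CPM in NP6070/KG00226, a difference of 1.398. RpL28 differed little in this pair (0.19), and it was not called over the 6 pairs (adjusted p = 0.366).

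The other pairs gave smaller median differences. Each pair joins different alleles, so the signs do not define a direction shared by the pairs. The member median was 0.29 for KG00226/w1118 minus w1118/KG00226, -0.16 for KG00226/sov2 minus sov2/KG00226, -0.12 for NP6070/sov2 minus sov2/NP6070 and -0.04 for NP6070/w1118 minus w1118/NP6070. For RpL30, the level in NP6070/w1118 was below that in w1118/NP6070 (-0.67), while NP6070/sov2, with 379, 382 and 395 CPM, and sov2/NP6070, with 362, 321 and 398 CPM, were both low. The pair of sov2/w1118 and w1118/sov2, with a median of -0.34, holds the library of 2110 counts. Without that pair 56 members were called, and without the 3 libraries of low count 61. The count depends on which libraries are kept, since it was 59 without replicate 1, 3 without replicate 2 and 6 without replicate 3 of every genotype, fits that each drop 12 of the 36 libraries.

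Relative to the median of the members in each library, RpL30 and RpL38 varied the most of the 74 members, with an SD of 0.35 each on the log2 scale over 87 libraries, followed by RpS14b with 0.32, RpL28 with 0.26 and RpL39 with 0.23.

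RpS14a and RpS14b (FBgn0004403 and FBgn0004404) are adjacent copies on the X chromosome that encode the same small subunit protein, RpS14a at 7933742 to 7934677 and RpS14b at 7934898 to 7935792, both on the plus strand. How reads that match both copies were counted is not given in the sources used here, so the values per copy are uncertain. With the counts of both copies summed, the sterile mutants without NP6070 were lower than the controls without NP6070 by 0.39 ± 0.11 on the log2 scale (adjusted p = 0.00402). NP6070/NP6070 was higher than the average of the fertile NP6070 trans-heterozygotes by 0.35 ± 0.10 (adjusted p = 0.0129).

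**Figure D5:**
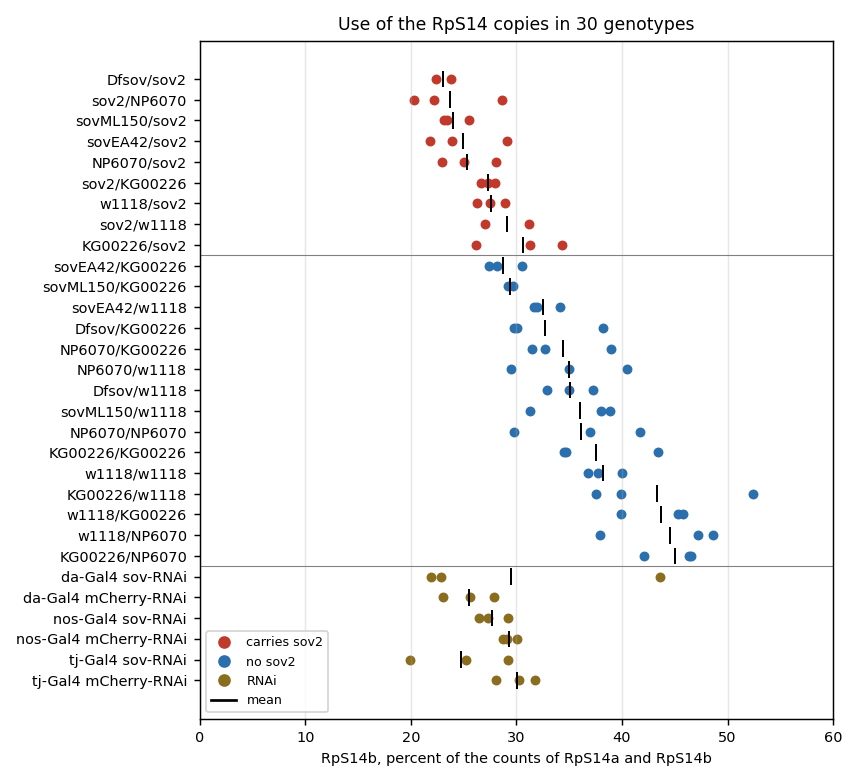
RpS14b counts as a percentage of the counts of RpS14a and RpS14b together, per library, in the 30 genotypes, with carriers of the sov2 chromosome in the upper rows, the other mutants and controls in the middle and the RNAi genotypes below. Carriers lie between 20.3% and 34.3%, the other mutants and controls between 27.4% and 52.4%, and the RNAi libraries between 19.9% and 43.6%.

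The split between the copies varied with genotype, a pattern described after its values were seen and given with no test. RpS14b took 23.1% to 30.6% of the summed counts in the 9 genotypes with sov2 (median 25.3%), against 28.7% to 45.0% in the 15 mutant and control genotypes without it (median 36.03%). The ranges overlap at their ends. Sterile genotypes without sov2 were often low among the non-carriers. The means were 28.7% in sovEA42/KG00226, 29.4% in sovML150/KG00226 and 32.7% in Dfsov/KG00226, but 36.1% in NP6070/NP6070. Low shares were not particular to sov2, since the 6 RNAi genotypes, none of which is labelled with sov2, had 24.8% to 30.05%, within the range of the sov2 carriers. Dfsov/sov2, with 1 sov2 chromosome and a deficiency, had the lowest mean at 23.1%, and KG00226/NP6070 had the highest at 45.0 ± 2.5% (SD, n = 3). Of the 6 sterile mutants without NP6070, 3 carry sov2, against 2 of the 8 controls without NP6070, and both values of the sterile comparison for RpS14a (-0.19) and RpS14b (-0.83) include this imbalance.

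In the RNAi genotypes the entry read as sov was compared between libraries labelled sov RNAi and mCherry RNAi (SD, n = 3 each). It averaged 128 ± 7.22 against 180 ± 23.4 CPM with da-Gal4 and 170 ± 28.4 against 164 ± 23.52 CPM with nos-Gal4. With tj-Gal4 it averaged 224 ± 11.4 against 161 ± 6.71 CPM. This entry was thus lower in mean under 1 of the 3 drivers. Its identifier differs from that of sov in the annotation, and sov RNAi below names the label. Few ribosomal protein genes were called in these groups. With da-Gal4, sov RNAi libraries had 8.50%, 10.7% and 12.2% of gene counts in ribosomal protein genes, against 9.33%, 13.0% and 14.0% in mCherry RNAi libraries, and the groups overlapped. Of 74 members 2 fell and 0 rose, against 11% of all 7700 features called lower, with a member median of -0.29 and an all-feature median of 0.02. RpL29 had 550, 568.3 and 801 CPM in sov RNAi ovaries, against 749, 983 and 1042 CPM in mCherry RNAi ovaries, and fell by 0.53 ± 0.14 (adjusted p = 0.0132). RpL34b had 689, 823 and 1156 CPM in sov RNAi ovaries, against 1016, 1438 and 1433 CPM in mCherry RNAi ovaries, and fell by 0.54 ± 0.17 (adjusted p = 0.0304). For both genes the highest sov RNAi library was above the lowest mCherry RNAi library. Of the genes with the largest changes in the sterile mutants, RpL28 had -0.38, RpS12 -0.35, RpS2 -0.07, sta 0.05 and RpS14b 0.08, and none of these was called. The count depends on single libraries: it was 40 without mCherry RNAi replicate 1 and 26 without sov RNAi replicate 3, 1 without mCherry RNAi replicate 2, and 0 without mCherry RNAi replicate 3 or sov RNAi replicate 1 or 2.

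With tj-Gal4, sov RNAi libraries had 8.72%, 9.48% and 10.0% of gene counts in these genes, against 11.2%, 10.3% and 10.4% in mCherry RNAi libraries, without overlap. The member median was -0.24, but 0 members were called by edgeR and 0 by DESeq2, 6 had an unadjusted p under 0.05, and 11.8% of all features were called. RpL15 had -0.38 ± 0.18 (adjusted p = 0.192) and RpL39 the highest value at 0.06. Muscle genes rose in 16 of 17 tested here, with a median of 3.11, and whether they bear on the members was not tested. With nos-Gal4, sov RNAi libraries had 10.5%, 11.4% and 11.3%, against 11.2%, 13.2% and 10.2% in mCherry RNAi libraries. No member was called by edgeR, 0 had an unadjusted p under 0.05 and DESeq2 called 0, with 2.62% of all features called and a member median of -0.09. The test of the difference between the nos-Gal4 and tj-Gal4 effects gave 0 calls by edgeR, 0 by DESeq2 and 0 with an unadjusted p under 0.05, against 4.87% of all features, with a member median of 0.13 and RpLP0 highest at 0.38 ± 0.22.

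The deficiency over w1118 was set against w1118/w1118 to see members near the deleted region. The sov gene lies at 6756322 to 6770712 on the X chromosome, and the nearest members are RpL17, 12.1 kb away at 6741537 to 6744238, and RpL7A, 223.0 kb away at 6530897 to 6533348. RpL17 had 2070, 2099 and 1780 CPM in Dfsov/w1118, against 2076, 1850 and 1664 CPM in w1118/w1118, and the groups overlapped (0.10 ± 0.11, adjusted p = 0.646). RpL7A had 2870, 3090 and 2767 CPM in Dfsov/w1118, against 2915, 2783 and 2484 CPM in w1118/w1118, with 0.11 ± 0.10 (adjusted p = 0.594). The extent of Dfsov was not used here. In the whole set RpL38 alone was called, against 2.36% of all 7245 features called lower, and the member median was 0.02. RpL38 had 557, 570 and 530 CPM in Dfsov/w1118, against 633, 1062 and 1218 CPM in w1118/w1118, without overlap, and fell by 0.80 ± 0.19 (adjusted p = 0.0401). The call was lost without any of the 3 Dfsov/w1118 libraries or without w1118/w1118 replicate 2 or 3, and with DESeq2, which called 3 other members.

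All values above are relative to the other genes in a library. Ribosomal protein counts per ERCC count gave a different scale, on which the sterile mutants without NP6070 had 57.2, 165 and 628 (lowest, median and highest library), against 375, 877 and 1402 in the controls without NP6070. The sov RNAi libraries had 209, 479 and 942, against 648, 788 and 1156 in the mCherry RNAi libraries. With libraries scaled to the ERCC counts, the median of all features was itself -1.57 in the sterile mutants without NP6070 against their controls, and all 74 members fell with a median of -2.09, which is 0.52 below that of all features. For tj-Gal4 the median of all features was -1.36 and all 74 members fell with a median of -1.58, a gap of -0.22. In NP6070/NP6070 against its heterozygous controls the medians were -0.11 for members and -0.15 for all features, with 1 member called. This scaling moves all genes of a library alike, so the gap between members and all features is nearly fixed by construction and is no separate check.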

How the data were processed

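PolyA RNA was measured in 90 stranded libraries of 15 ovaries each. Per the submitters' processing notes CASAVA 1.8.2, HISAT2 2.0.5 and HTSeq 0.7.2 were used, and single-end reads of 50 bp were mapped to genome release 6.21, per the series text. The authors deposited whole-number counts of reads per gene, transposable element family and ERCC spike-in, with no normalisation. Each library had 17741 entries, and the 5 rows of unassigned reads, 12.55% to 63.09% of a library, stayed out of totals and tests. Multi-mapping reads were treated in a way not given in the sources used here, which bears on RpS14a and RpS14b. Symbols were found for 17365 genes in the Ensembl annotation of release 115 (BDGP6.54, the release 6 assembly), and exon lengths came from it. The position of sov was found there by its symbol, while its counts are those of the identifier in the labels.

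From the counts, edgeR 4.0.16 (R 4.3.3) was run with TMM scaling, its filter on low counts and the quasi-likelihood F test, adjusted over all genes and transposable element families tested. Classes were compared over 24 genotypes with the 3 libraries of each summed, so p-values measure the spread between genotypes that share alleles. NP6070/NP6070 (21 libraries), RNAi (18), the deficiency (6) and allele order (36) were compared over libraries, so p-values measure the spread between pools of ovaries. ERCC pools 78A and 78B were known for each library and used as a covariate in an alternative. Alternatives were DESeq2 1.42.0, its size factors, ERCC counts as library sizes, no filter, left-out libraries or genotypes, pooled classes and a replicate block. Summed RpS14 copies, a stricter filter, sterile genotypes without sov2 or KG00226, 5 allele-order pairs and the difference of the sterile effects were added after the data were seen. On simulated counts, 51% of genes changed by 1.5-fold and 72% of those changed by 2-fold were recovered for sterile mutants against controls. The rates were 50% and 78% with da-Gal4 and 75% and 92% for NP6070/NP6070 against its heterozygous controls. Of the genes called, 3.1%, 2.3% and 5.6% had no change in these 3 comparisons. The changed genes were drawn at random, with noise independent between genes. These rates are thus not those of the members, which move together.

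The members, gene lists and markers were chosen with earlier results of these data known. Genes were named by a panel of 26 members by role, the 3 lowest and 3 highest members of a comparison, members called against the majority, and the X-linked members nearest to sov. Others, RpL29 and RpL34b as the 2 members called with da-Gal4 among them, were named after their values were seen. The counts limit precision to counting error in the libraries of low depth. Some members are counted but not reported here by name.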

Additional observations from a re-analysis of the deposited data

Results flagged for a closer look

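Within mutant and control classes of 4, 6 or 8 genotypes, genotype values were examined for a genotype far from the rest. Of 39 such groups 2 held one, about what a rate of 1 in 20 gives. The groups share libraries and some genes were chosen by their values, so that rate is only nominal. RpL30 averaged 962 CPM in KG00226/NP6070, far above the other 3 fertile NP6070 genotypes, with 0.90 of the range of the 4 genotypes lying in that gap. RpS14b averaged 443 CPM in KG00226/NP6070, with a gap of 0.88 of the range. Both values come from the same genotype, whose 3 libraries took 11.3% to 14.5% of gene counts in ribosomal protein genes, against 8.09% to 9.64% in NP6070/KG00226. The sterile effect on RpL28 differed between carriers and non-carriers of NP6070 by 1.23 ± 0.25 on the log2 scale (adjusted p = 0.0323 with edgeR). This comparison was added after the data were seen and rests on 1 sterile and 2 control genotypes with NP6070. The call was lost in several fits that left out a single genotype (above).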

How the results depend on the processing

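The fall of the members in sterile mutants without NP6070 against controls without NP6070 kept its direction and size of count under every alternative run, with 55 to 74 members called and 64 to 70 when a genotype was left out. All 74 fell with ERCC counts as library sizes, but that scaling moved the median of all features to -1.57 and is no separate check. Counts of the other comparisons moved more. With ERCC counts as library sizes, 74 members were called for sterile against fertile mutants, for tj-Gal4, for the difference of nos-Gal4 and tj-Gal4 and for allele order, 1 for NP6070/NP6070 against its heterozygous controls and 1 against the fertile trans-heterozygotes, both lower, and 0 for da-Gal4, the deficiency and the difference of the sterile effects. On that scale, for NP6070/NP6070 against the trans-heterozygotes, RpS14b had -0.026, RpL28 -0.20 and RpS6 -0.19, for tj-Gal4 RpL39 had -1.30, and for nos-Gal4 minus tj-Gal4 RpS14a had 1.18, RpS9 1.19 and RpL39 1.22, each reversed in sign by a scaling that moved the median of all features to -0.57, -1.36 and 1.27 in these 3 comparisons. With DESeq2, 12 members were called for the difference of the sterile effects, 44 for NP6070/NP6070 against the trans-heterozygotes, 7 for da-Gal4 and 3 for the deficiency, of which 2 were higher. Without the filter on low counts da-Gal4 gave 20, tj-Gal4 5 and the deficiency 2. With the ERCC pool as a covariate da-Gal4 gave 4 and the trans-heterozygote comparison 14. With classes pooled over NP6070, 1 member was called for the fertile mutants against controls and 2 for sterile against fertile mutants. Leaving out the sterile genotypes with sov2, or those with KG00226, gave 23 each for sterile against fertile mutants. The cause of these moves was not tested.

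With 1 genotype or library left out, the counts ran from 17 to 46 for sterile against fertile mutants, 0 to 1 for fertile mutants with NP6070, 0 to 5 for the difference of the sterile effects, 2 to 14 for NP6070/NP6070 against its heterozygous controls, 2 to 53 against the trans-heterozygotes, 0 to 40 for da-Gal4 and 0 to 1 for the deficiency. For allele order they ran from 3 to 59 when a replicate number was left out of all 12 genotypes at once. The balance of higher and lower calls for NP6070/NP6070 against its heterozygous controls turned without NP6070/NP6070 replicate 2 (6 called), NP6070/w1118 replicate 2 (9) or w1118/NP6070 replicate 3 (8).

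Replicate numbers did not pair the libraries, since deviations of libraries with the same number had median correlations of -0.0028 for NP6070, -0.02 for RNAi, -0.02 for the deficiency and -0.0032 for allele order. The fit with the replicate block gave 5 for da-Gal4, 0 for the deficiency, 9 and 29 for NP6070/NP6070 against heterozygous controls and trans-heterozygotes, 42 for allele order and 0 for the other RNAi comparisons. Values of the named genes were also tallied, without the allele-order test and the fits that left out a single genotype, library or replicate number. Of these, 669 kept their call status, 32 gained a call, 28 lost it and 7 changed sign with a call in either fit. A change of sign with no call in either fit is counted among the 669. Depth limits single values in the 3 libraries under 100000 gene counts.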
